A study of Mus musculus with 14 samples.

Results

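Chaperones are proteins that help other proteins fold, and this account follows 10 of their genes through the developing and the adult mouse small intestine. They were taken by name from the families of heat shock proteins and chaperonins, and a probe set (the array's group of probes for a transcript) was used where it was annotated to exactly 1 of the 10 symbols. Of 20393 probe sets with 1 gene symbol, 23 met that rule. They covered 9 of the 10 genes, out of 12394 genes on the array with such a probe set. The 5 cytosolic genes were Hspa1b, Hspa8, Hsp90aa1, Dnajb1 and Hsph1, the 3 mitochondrial genes were Hspd1, Hspe1 and Hspa9, and the gene of the endoplasmic reticulum (ER) was Hspa5. Hsp90ab1, the tenth, had 0 such probe sets and was not analysed here.

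RNA was measured on single-colour arrays in 14 samples of 4 groups. Crypts, the pockets of the epithelium where cells divide, and villi, the projections lined by absorptive cells, were each isolated from C57BL/6 mice aged 12 weeks, with 3 arrays a group. Endoderm, which becomes the epithelium, and mesenchyme, which becomes connective tissue and muscle, were separated from collagenase-treated intestine at embryonic day 12 (E12), and each E12 sample was a pool of fetuses whose strain the labels do not name. No group carried a transgene or a drug treatment in its labels. The first of 2 deposited tables held the 6 adult arrays and 1 array of each E12 layer, from pools of 35 fetuses. The second held 3 arrays of each E12 layer, from pools of 10 to 12 fetuses. Values are log2 signals, so a difference of 1 is a doubling, and levels were compared only within a table. In tissue made of several cell types, fewer cells of a type and less RNA per cell cannot be told apart.

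Most newly made proteins need help to reach their folded shape. The Hsp70 proteins bind exposed stretches of a polypeptide in cycles of ATP use that J-domain partners start and nucleotide exchange factors end, while Hsp90 acts later, on nearly folded clients such as kinases and receptors. Chaperonins are closed barrels in which a protein folds in isolation, with Hspd1 and its lid Hspe1 in mitochondria and the TRiC complex in the cytosol. Heat, oxidation and other stress switch on the cytosolic genes through the factor HSF1, and unfolded protein in the ER switches on Hspa5 and its neighbours through the unfolded protein response.

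Stretches of 4 promoters are shown because they hold elements known from the control of such genes. The part of these elements in the signals below was not tested. Of the 10 genes, 6 had entries in the RefSeq promoter table of build GRCm38.p6 (250 bases before to 50 after a transcript start). Hspa8, Hspa9, Hsp90aa1 and Hsp90ab1 had none. Capitals mark a heat shock element core, GAANNTTC or TTCNNGAA, in the first 3 stretches. In the last they mark a CCAAT box and a CCACG element 9 bases apart, the form of an ER stress element. Each is written 5′ to 3′ on the gene's own strand.
Hspe1, chr1:55088053-55088082, plus strand, 95 to 66 bases before the start: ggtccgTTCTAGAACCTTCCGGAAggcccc
Hspa1b, chr17:34959289-34959358, minus strand, 120 to 51 bases before the start: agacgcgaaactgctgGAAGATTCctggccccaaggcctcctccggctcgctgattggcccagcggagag
Hsph1, chr5:149636351-149636380, minus strand, 65 to 36 bases before the start: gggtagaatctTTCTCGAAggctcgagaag
Hspa5, chr2:34771980-34772049, plus strand, 110 to 41 bases before the start: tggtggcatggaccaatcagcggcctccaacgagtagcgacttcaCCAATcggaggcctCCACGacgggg

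The capitals in the Hspe1 stretch are 3 overlapping cores, 2 of the TTCNNGAA form and 1 of the GAANNTTC form, in an unbroken run. Hspe1 and Hspd1 lie head to head on opposite strands, and their windows share 285 of 300 bases, so the same run stands in a window of both genes. Searched on both strands of 32851 windows of this length, GAANNTTC was found in 7.9%, TTCNNGAA in 8.5% and both in 1.3%. The Hspe1 window, 1 of 2 Hspd1 windows and both Hsph1 windows held each form, and the Hspa1b window held GAANNTTC once. The other Hspd1 window, 2 windows of Dnajb1 and the Hspa5 window held neither. CCAAT alone was found in 37.4% of windows and CCACG in 32.8%. The pair CCAAT, any 9 bases, CCACG, a search made after the windows had been seen, was found in 39 windows (0.1%), and Hspa5 was the gene among the 6 that held it. A match describes letters, not binding.

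The groups carried the markers of their names. On the second table's arrays the mean log2 signal of 7 epithelial markers was 11.05 to 11.39 in E12 endoderm and 5.99 to 6.57 in mesenchyme, and that of 9 stroma markers was 5.50 to 6.00 and 10.44 to 10.55. In villi against crypts all 8 enterocyte markers on the array were called higher and all 5 Paneth cell markers lower. The mean of the 5 Paneth cell markers was 12.92 to 13.09 in crypts and still 8.17 to 9.91 in villi, against 5.93 in E12 endoderm. Leukocyte markers also differed. Their mean over 9 genes was 6.64 to 6.78 in crypts, 7.73 to 8.29 in villi and 5.99 in E12 endoderm, and 6 of 9 were called higher in villi and 2 lower. In E12 endoderm of the first table the stroma gene Vim stood at 10.36 against 6.62 in crypts. It was the 1 called of 6 stroma markers tested there, and their median difference, crypts minus endoderm, was 0.03. A gene had to pass the dim limit on 3 arrays, so markers dim in the adult arrays were not tested. Among these Col3a1 was at 7.51 in that endoderm array and 4.36 in crypts. Lum (5.70 and 4.84) and Pdgfrb (5.08 and 5.58) were dim in both. The mean of the 9 stroma markers was 6.84 in that endoderm array and 6.04 to 6.16 in crypts. The 30th percentile of an array's values, below which a signal was treated as dim, was 5.71 to 5.88 in the first table and 4.70 to 4.78 in the second.

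Before the groups are compared, the arrays that carry the number 41 need describing, because they stood apart for these genes. Crypt 41 had the highest signal of the 3 crypts for 9 of 9 chaperone genes, while it was highest for 36.1% of all genes. Villus 41 was highest of the 3 villi for 6 of 9, namely the 5 cytosolic genes and Hspa5, and lowest for the 3 mitochondrial genes, while it was highest for 31.3% and lowest for 42.9% of all genes. The offset of crypt 41 was not particular to these genes. Its mean was also the highest for TRiC and its helpers (9.77 against 9.20 and 9.33 in crypts 12 and 21). The same held for ER folding genes (9.94 against 9.67 and 9.64) and proliferation markers (9.11 against 8.77 and 8.89). For Paneth cell markers it was the lowest (12.92 against 13.06 and 13.09). The labels do not say whether crypt 41 and villus 41 came from the same mouse.

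The excess in crypt 41 was greatest in the stress-inducible genes. Hspa1b was 3.10 above the mean of the other 2 crypts, and Hsph1 was 2.68 above it. Dnajb1, Hspe1 and Hsp90aa1 were 1.21, 1.08 and 1.05 above. Hspa8, Hspd1, Hspa5 and Hspa9 were 0.92, 0.79, 0.45 and 0.34 above. In villus 41, Hspa1b and Dnajb1 led with 1.92 and 1.30, and Hspe1 was at -1.32. Results whose calls rest on these arrays are given with and without them below. Leaving out both was chosen after these values had been seen, so calls gained that way are not independent of the choice.

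**Figure D1:**
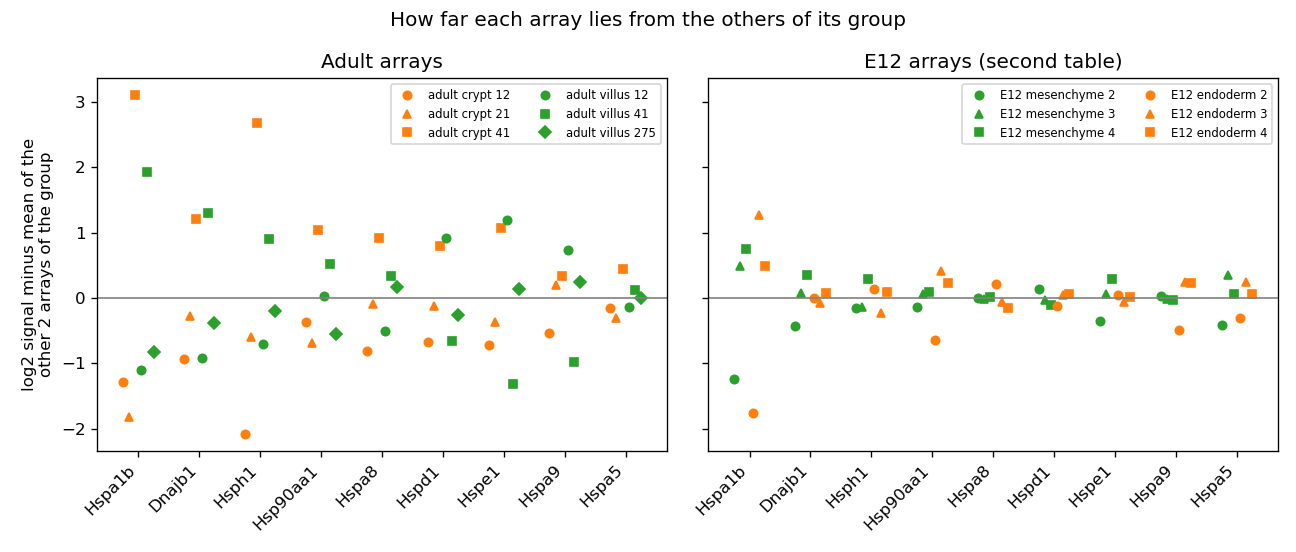
Log2 signal of each array minus the mean of the other 2 arrays of its group, for 9 chaperone genes, in adult arrays (left: crypts orange, villi green) and in the second table's E12 arrays (right: endoderm orange, mesenchyme green), with a marker shape for each replicate number. Crypt 41 lies above 0 for 9 of 9 genes, by up to 3.10 in Hspa1b, and both E12 arrays numbered 2 are low for Hspa1b, at -1.76 in endoderm and -1.25 in mesenchyme.

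Villi were compared with crypts, the question being how the differentiated and the dividing compartments of the epithelium differ. The 3 mitochondrial folding genes were called lower in villi. Hspe1 was 6.03-fold lower, Hspd1 4.98-fold lower and Hspa9 2.69-fold lower, and the ER gene Hspa5 was 1.63-fold lower (3 arrays a group). Of the 5 cytosolic genes 0 passed the adjusted limma threshold, and 3 had an unadjusted p under 0.05. In all, 4 of 9 genes were called lower and 0 higher at an adjusted p under 0.05 (limma, Benjamini-Hochberg). Over the 9962 genes tested, 32.0% were called, 15.0% lower and 16.9% higher, and the median difference was -0.0009.

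Hspd1, the barrel of the mitochondrial chaperonin, stood at 10.19, 10.55 and 11.17 in crypts 12, 21 and 41. Its villus signals were 8.93, 7.89 and 8.15 in villi 12, 41 and V275. Every villus lay below every crypt, and the difference was -2.32 ± 0.33 (SE, limma adjusted p = 0.00203).

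Hspe1, the lid that closes that barrel, stood at 9.75, 9.98 and 10.94 in the crypts and at 8.43, 6.75 and 7.72 in the villi. The groups again did not overlap, with a difference of -2.59 ± 0.46 (limma adjusted p = 0.00484). The second probe set of Hspe1, which was dimmer, gave a difference of -0.85 that was not called (limma adjusted p = 0.0877).

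Hspa9, the mitochondrial Hsp70 that pulls imported proteins through the inner membrane, stood at 8.62, 9.10 and 9.20 in crypts and at 8.03, 6.89 and 7.71 in villi. No villus reached the lowest crypt, and the difference was -1.43 ± 0.30 (limma adjusted p = 0.0102). Without crypt 21 it kept its size, at -1.37, and was no longer called (limma adjusted p = 0.0508).

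Hspa5, known as BiP, holds unfolded proteins in the ER and restrains the sensors of the unfolded protein response. Its signal was 11.60, 11.50 and 12.00 in the crypts and 10.91, 11.09 and 11.00 in the villi. This was a small and even step, -0.70 ± 0.17 (limma adjusted p = 0.016), with no overlap. A second probe set of Hspa5 gave -0.32, which was not called (limma adjusted p = 0.398).

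Among the cytosolic genes, Hspa8 and Hsp90aa1 are made by most cells also without stress. Hspa8, the constitutive Hsp70, stood at 11.32, 11.80 and 12.48 in crypts and at 10.93, 11.50 and 11.38 in villi. These ranges overlapped, and the difference of -0.60 ± 0.30 was not called (limma adjusted p = 0.169). Hsp90aa1, the inducible form of cytosolic Hsp90, stood at 9.95, 9.74 and 10.89 in crypts and at 9.24, 9.56 and 8.85 in villi. Its groups did not overlap, yet the difference of -0.98 ± 0.32 just missed the threshold (limma adjusted p = 0.0522). Without villus 41 it was called, at -1.15 (limma adjusted p = 0.0322), and without crypt 41 it was -0.63 (limma adjusted p = 0.0987). Another of its probe sets gave -1.58 and was called (limma adjusted p = 0.0103).

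Among the crypts the stress-inducible genes Hspa1b, Hsph1 and Dnajb1 varied most, with SDs of 1.80, 1.62 and 0.74. Among the villi Hspa1b varied most (1.11), and Hspe1 (0.84) varied more than Dnajb1 (0.77) and Hsph1 (0.55). Hsph1, an Hsp70 relative that exchanges the nucleotide of Hsp70, stood at 7.68, 8.67 and 10.86 in crypts and at 6.39, 7.45 and 6.72 in villi. The crypts alone spanned more than 3 log2 units and still stayed above every villus. The difference was -2.22 ± 0.73 (limma adjusted p = 0.0516). Without villus 41 or without crypt 12 it was called, at -2.52 and -2.91 (limma adjusted p = 0.0382 and 0.03). It was not called without crypt 41, which took it to -1.32 (limma adjusted p = 0.0587), nor without crypt 21, villus 12 or villus V275 (limma adjusted p = 0.11, 0.114 and 0.111).

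Dnajb1, the J-domain partner that starts the cycle of inducible Hsp70, ran the other way. It stood at 7.22, 7.66 and 8.65 in crypts and at 8.55, 10.03 and 8.90 in villi. Only crypt 41 overlapped the villi, and the difference of 1.31 ± 0.46 was not called (limma adjusted p = 0.0653). It was called higher in villi without crypt 41 (1.72, limma adjusted p = 0.0346), without villus 12 (1.62, limma adjusted p = 0.0384) and without both arrays numbered 41 (1.39, limma adjusted p = 0.00476). It was not called without villus 41 (0.88, limma adjusted p = 0.121), crypt 12 (1.00, limma adjusted p = 0.209), crypt 21 (1.22, limma adjusted p = 0.19) or villus V275 (1.44, limma adjusted p = 0.0924). Its other probe set gave 1.43 and was called (limma adjusted p = 0.00475).

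Hspa1b, the inducible Hsp70, stood at 5.77, 5.41 and 8.70 in crypts and at 6.80, 8.81 and 6.98 in villi. Crypts 12 and 21 lay below the 30th percentile of their own arrays, so their signals were dim, and crypt 41 lay among the villi. The difference of 0.90 ± 0.89 was not called (limma adjusted p = 0.49), and with single arrays left out it ranged from 0.26 without villus 41 to 1.94 without crypt 41 (limma adjusted p = 0.861 and 0.0617). Hspa1a is a near-identical copy of this gene, and the probe sets of the pair cannot be told apart with certainty.

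**Figure D2:**
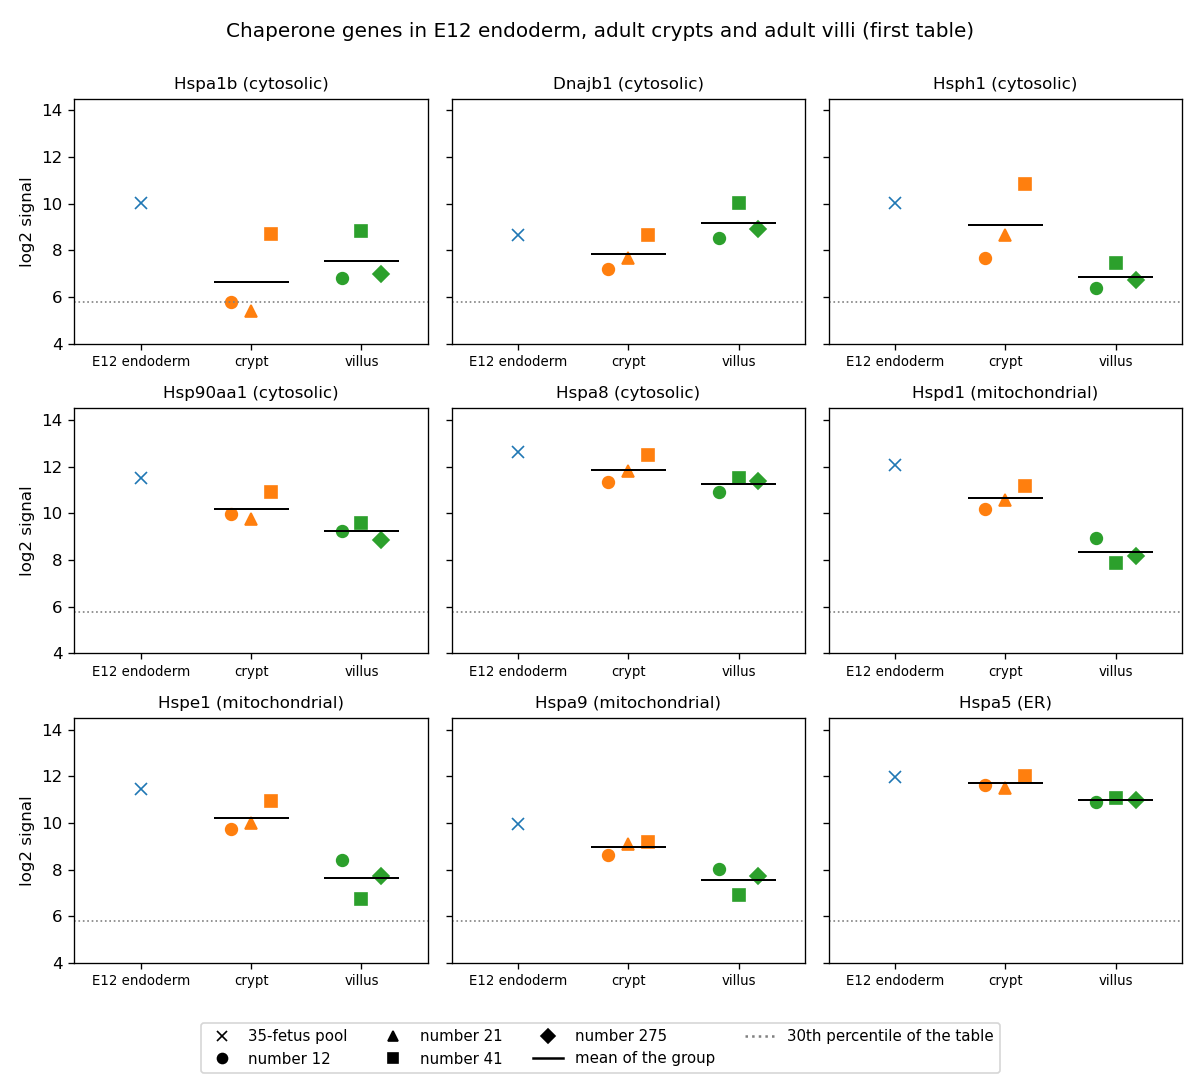
Log2 signal (y axis) of 9 chaperone genes in the first table, 1 panel a gene, with 1 point per array for E12 endoderm (a pool of 35 fetuses), crypts and villi. Marker shapes give the replicate number, bars the mean of 3 arrays and the dotted line the 30th percentile of the table. For Hspd1, Hspe1 and Hspa9 the endoderm array lies above all crypts and all crypts above all villi. Crypts against E12 endoderm passed the test for 0 of these 3, and the share of all genes in such an order was not counted.

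With both arrays numbered 41 left out, Hspa1b was too dim to be tested and 6 of the other 8 genes were called lower. Hsp90aa1 (-0.80, limma adjusted p = 0.0255) and Hsph1 (-1.63, limma adjusted p = 0.0124) were the ones added. Over all genes 2807 of 9667 were called in this setting. It was chosen after the values of these genes had been seen, so the added calls are no separate support. Over all alternatives the count of chaperone genes called lower ranged from 0 to 7. It was 0 with the replicate number as a block, where Hspd1, Hspe1, Hspa5 and Hspa9 all lost their calls. Leaving out crypt 21 took the genes called over the whole table from 3183 to 1851.

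The other genes of folding were counted from lists of the same pathways, beside 15.0% called lower and 16.9% higher over all genes tested. The cytosolic TRiC chaperonin and its helper prefoldin had 8 of 13 tested genes called lower in villi and 0 higher, with a median difference of -0.83. Tcp1 and Cct3, 2 of the TRiC subunits, were at -1.79 ± 0.23 and -1.28 ± 0.25 (limma adjusted p = 0.00142 and 0.00771). Without crypt 21, 5 of the TRiC and prefoldin genes were called lower, and 5 also without both arrays numbered 41.

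Of 25 ER chaperone and unfolded protein response genes, 11 were called lower and 1 higher, with a median of -0.69. Pdia6, a disulfide isomerase, fell by 1.67, and Sil1, the exchange factor of Hspa5, fell by 1.26. Fewer of these genes were called lower without crypt 21 (6), without crypt 41 (7) or without villus 12 (7), and 8 were without both arrays numbered 41. Of 14 mitochondrial import, chaperone and protease genes, 6 were called lower and 2 higher, with a median of -0.41. They included Timm44, which ties Hspa9 to the import channel, at -1.05, and Trap1, the mitochondrial Hsp90, at -0.99. The count of 6 went to 2 without crypt 21, and to 3 without crypt 41, without villus V275 or without both arrays numbered 41.

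Of 27 cytosolic heat shock genes and cochaperones 6 were called lower and 1 higher, with a median of -0.14. Fkbp4 and Ahsa1, which work with Hsp90, were at -1.82 and -0.90. The count called lower was 3 without crypt 21, without crypt 41 or without both arrays numbered 41, and the counts of 1 or 2 called higher in these lists ranged from 0 to 2 over the alternatives. Over all alternatives the genes called lower ranged from 1 to 9 for TRiC and prefoldin, 2 to 16 for the ER, 0 to 7 for mitochondria and 0 to 7 for the cytosolic cochaperones.

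Other markers moved with these genes. Of 9 proliferation markers 8 were called lower in villi and 0 higher, and their mean signal was 8.77 to 9.11 in crypts and 7.01 to 7.36 in villi. Immediate-early genes, which cells switch on within minutes of many stimuli, ran in the direction of Dnajb1. Of 11 tested 9 were called higher in villi and 0 lower, led by Fos at 4.21 ± 0.34 and Jun at 3.81 ± 0.43. The mean of 12 immediate-early genes was 7.09 to 7.18 in the 3 crypts, crypt 41 among them, and 8.65 to 9.85 in the 3 villi. In villi 12, V275 and 41 the Paneth cell mean was 9.91, 8.86 and 8.17, and the proliferation mean 7.36, 7.24 and 7.01. Hspd1, Hspe1 and Hspa9 fell in the same order, while the other 6 chaperone genes were highest in villus 41. Whether the villus samples held crypt material was not tested. The part of these markers, and of the leukocyte markers above, in the chaperone differences was not tested.

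Crypts and villi were then each set against E12 endoderm, their embryonic forerunner, in a single fit of the first table in which the lone endoderm array is assumed to vary like the adult groups. Both comparisons use that array, so they are not independent of each other. Adult chaperone signals were mostly below it. In villi 7 of 9 genes were called lower and 0 higher (8 of 9 lower without both arrays numbered 41), and Hspe1 and Hspd1 were 14.2-fold and 13.5-fold lower. In crypts the difference was below 0 for 9 of 9 genes, and 0 passed the adjusted threshold, with 3 at an unadjusted p under 0.05. Over 10082 genes, villi had 39.1% called (22.1% lower, 17.0% higher, median difference 0.13) and crypts 23.3% (15.1% lower, 8.20% higher, median difference 0.05).

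On the brightest probe set of each mitochondrial gene the arrays kept an order. The endoderm array stood at 12.08 for Hspd1, 11.47 for Hspe1 and 9.94 for Hspa9, above every crypt, and every crypt stood above every villus. The share of all genes that kept such an order was not counted, so the order is a description and not a trait of these genes. Villi minus E12 endoderm gave -3.75 ± 0.47 for Hspd1, -3.83 ± 0.65 for Hspe1 and -2.40 ± 0.43 for Hspa9 (limma adjusted p = 0.000666, 0.00269 and 0.00364). Crypts minus E12 endoderm gave -1.44, -1.24 and -0.97 for the same genes (limma adjusted p = 0.0615, 0.197 and 0.14), none called.

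For Hspe1 the probe sets disagreed in size. The dimmer of its 2 probe sets put crypts 2.49 below endoderm in log2, a call (-2.49, limma adjusted p = 0.00927). Other probe sets of Hspa9 did not keep the order against crypts: 1 put endoderm at 8.76, inside the crypt range of 8.16 to 8.86, and another gave crypts a difference of 0.08.

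Hspa5 had a signal of 11.96 in endoderm, inside the crypt range and above every villus. Villi were at -0.96 ± 0.24 against it (limma adjusted p = 0.0149) and crypts at -0.26 ± 0.24 (limma adjusted p = 0.454). On its second probe set the villus difference was -0.54 and was not called (limma adjusted p = 0.277).

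Of the same cytosolic pair, Hsp90aa1 was at 11.52 in endoderm, with the crypts and then the villi below it in non-overlapping steps. The villus difference was -2.30 ± 0.45 (limma adjusted p = 0.0056) and the crypt difference -1.32 ± 0.45 (limma adjusted p = 0.0716). Hspa8 was at 12.61 in endoderm, just above the 12.48 of crypt 41. It was called lower in villi on the brightest probe set, at -1.34 ± 0.42 (limma adjusted p = 0.0383). The other 3 probe sets of Hspa8 gave -0.59, 0.02 and -0.49, none called, so this result rests on the probe set chosen. It also lost its call without crypt 21, without villus 12 or without villus V275 (limma adjusted p = 0.0701, 0.0701 and 0.0591). Against crypts the same 3 gave 0.19, 0.73 and 0.30, opposite in sign to the -0.74 of the brightest.

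Among the inducible genes, Hsph1 at 10.03 in endoderm lay inside the crypt range and above every villus (-3.18 ± 1.0, limma adjusted p = 0.042). That call was lost without crypt 21, without villus 12 or without villus V275 (limma adjusted p = 0.0721, 0.0744 and 0.0748), with no dim gene filter (0.0531) and with a trended and robust prior (0.0556). Hspa1b, at 10.02 in endoderm, was above every adult array, with differences of -3.40 ± 1.3 for crypts and -2.49 ± 1.3 for villi that were not called (limma adjusted p = 0.0893 and 0.153). Dnajb1 stood alone in lying within the villus range, at 8.68 in endoderm, with a villus difference of 0.48 ± 0.65 and a crypt difference of -0.83 ± 0.65 (limma adjusted p = 0.576 and 0.379).

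The crypt count changed with the arrays numbered 41. Without both of them 8 of 9 genes were called lower in crypts than in E12 endoderm, and Hspa5 was the exception. Without crypt 41 alone 3 were called (Hspa1b, Hsp90aa1 and Hspd1), and without villus 41 alone, which changes the spread and not the difference, 4 were (these 3 and Hspa9). Without villus 12, 1 was called (Hspd1). Hspa1b was also called lower in villi without crypt 41 (limma adjusted p = 0.0459) and without both arrays numbered 41 (limma adjusted p = 0.000175). Over the whole table, 1340 genes were called between crypts and E12 endoderm without crypt 21, against 2348 with it. Without both arrays numbered 41 the count over all genes also rose, to 3419 of 9907 tested. For villi against E12 endoderm it was 4177, against 3946 with all arrays.

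**Figure D3:**
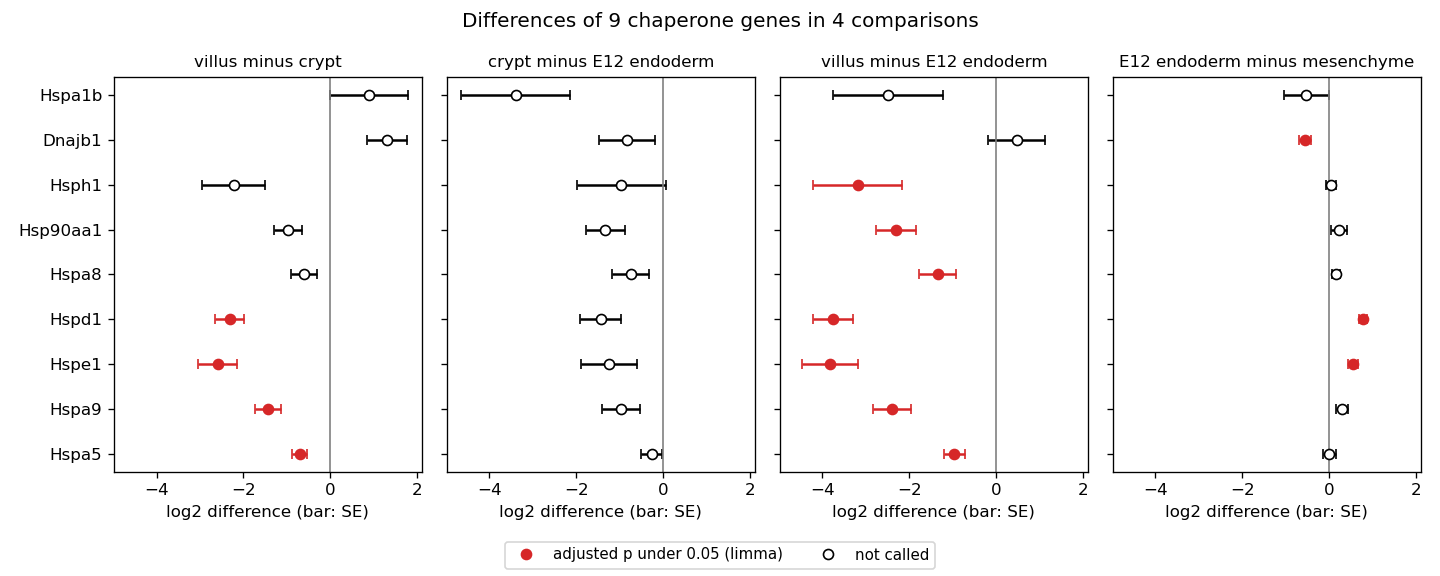
Log2 differences (x axis) of 9 chaperone genes in 4 comparisons, with bars for the SE from limma, filled red where the adjusted p was under 0.05 and open where it was not. Villi are below E12 endoderm in 8 of 9 genes and called so in 7, and crypts lie below it in 9 of 9 with 0 called. Differences between the E12 layers, from the second table, are at most 0.79 in size.

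The wider folding machinery was counted in the same fit. Over all genes tested, 22.1% were called lower and 17.0% higher in villi, and 15.1% lower and 8.20% higher in crypts. In villi 9 of 13 TRiC and prefoldin genes were called lower than in E12 endoderm (median -2.18), with Tcp1 at -2.87 and Cct8 at -2.85. In crypts it was 6 of 13 (median -1.08), with Cct8 at -1.76 and Cct5 at -1.66, and 0 were called higher in either. The crypt count was 3 without crypt 21 and 10 without both arrays numbered 41.

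Cytosolic cochaperones were called lower for 11 of 28 genes in villi and 9 of 28 in crypts, with a median of -0.65 in each. Fkbp4 and Stip1, which link Hsp90 to clients and to Hsp70, were at -3.41 and -2.74 in villi. Hspa1a and Bag2 were at -2.92 and -2.23 in crypts, where the Hspa1a signal averaged 5.22, below the 30th percentile of those arrays, so that its difference is not exact. In crypts 5 were called lower without crypt 21. In villi 1 of the 28 was called higher, and in crypts 0 were.

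Genes of the ER were called in both directions. In crypts 8 of 25 were called higher than in E12 endoderm and 1 lower (median 0.64), led by Herpud1, a factor of ER-associated degradation, at 2.40, and Dnajc3, a J-domain partner of Hspa5, at 2.36. In villi 6 were called higher and 4 lower (median 0.29), with Edem1, which sorts misfolded glycoproteins for degradation, at 1.95 and Pdia6 at -2.47. The 4 called lower became 2 without crypt 12, without crypt 21, without villus 41 or without villus V275.

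Mitochondrial import, chaperone and protease genes were called lower for 5 of 14 in villi and higher for 2 (median -0.49). Grpel1, the exchange factor of Hspa9, was at -1.71, and Lonp1, a matrix protease, at -1.60. In crypts 0 of 14 were called in either direction at the adjusted limma threshold and 1 had an unadjusted p under 0.05 (median -0.39), where Grpel1 had the largest difference, -0.81 (limma adjusted p = 0.13). Without crypt 41, without villus 12 or without villus 41, 1 of the 14 was called lower in crypts. The counts of 1 or 2 in this fit's lists of folding genes ranged from 0 to 2 over the alternatives.

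Markers of other cells and states ran alongside. Paneth cell markers had a mean of 5.93 in E12 endoderm, 12.92 to 13.09 in crypts and 8.17 to 9.91 in villi, and 5 of 5 were called higher in each adult group. Enterocyte markers, at 7.66 in E12 endoderm and 12.30 to 12.80 in villi, were called higher in villi for 8 of 8, and in crypts for 2 with 1 lower. Leukocyte markers were called higher for 6 of 9 in villi and 2 of 9 in crypts, and 0 were called lower. The mean proliferation signal was 10.70 in E12 endoderm, with 9 of 9 markers called lower in villi and 7 of 9 in crypts. The mean immediate-early signal was 9.30 in E12 endoderm. Of 12 such genes 8 were called lower in crypts and 0 higher, with Jun at -4.55 and Dusp1 at -4.19. In villi 3 were called lower and 1 higher, with Egr1 at -3.04 and Junb at 1.66, and 5 were called lower without villus 41 or without both arrays numbered 41. The crypt signal of Dusp1 averaged 4.91, below the 30th percentile of those arrays, so its difference is not exact. E12 samples were pools cut out after collagenase treatment and adult samples were isolated crypts and villi, so stage and way of isolation cannot be told apart, and the part of these markers in the chaperone differences was not tested.

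**Figure D4:**
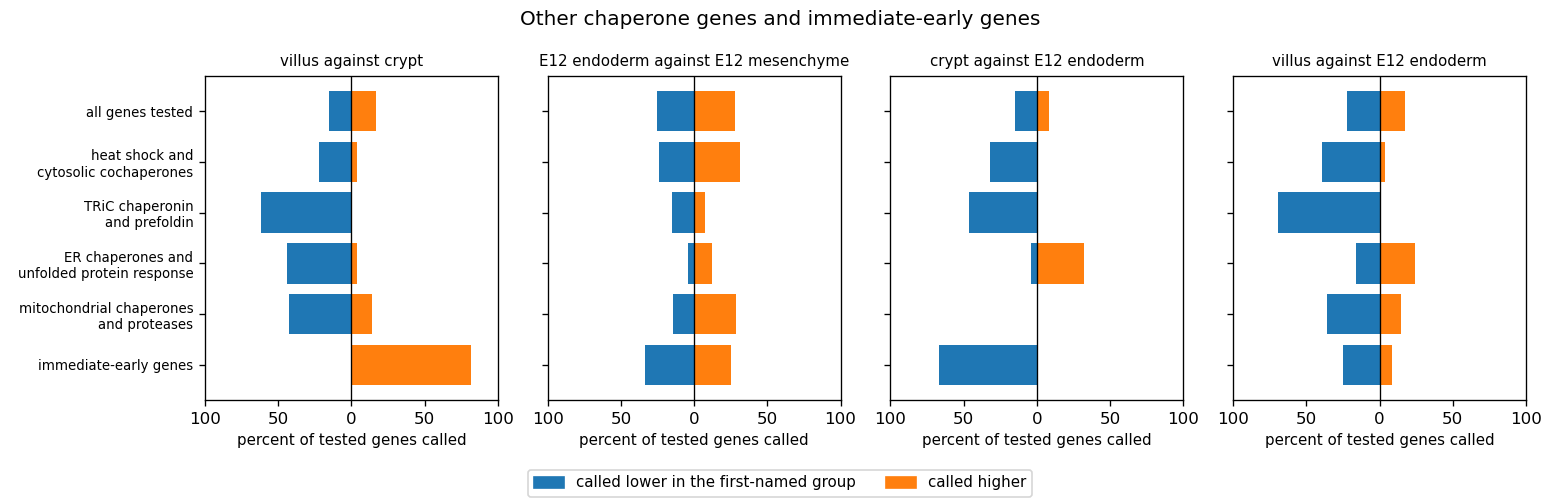
Percent of tested genes called lower (blue, to the left) and higher (orange, to the right) in the first-named group of each comparison, for 4 lists of folding genes, the immediate-early list and all genes tested. TRiC and prefoldin genes were called lower in villi for 8 of 13 against crypts and 9 of 13 against E12 endoderm, while the ER list was called higher in crypts than in E12 endoderm for 8 of 25.

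The E12 layers were compared on the second table to see how the embryonic epithelium differs from the tissue around it. Differences were at most 0.79 in size on the log2 scale on the brightest probe set of each gene. Hspd1 and Hspe1 were called higher in endoderm, by 1.73-fold and 1.48-fold, and Dnajb1 was called lower, by 1.46-fold (3 pools a group). That made 2 of 9 higher and 1 lower, where over 9442 genes 53.1% were called, 27.7% higher and 25.4% lower, with a median difference of 0.03.

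Hspd1 stood at 12.75, 12.86 and 12.87 in endoderm pools 2, 3 and 4 and at 12.13, 12.01 and 11.96 in mesenchyme pools 2, 3 and 4. The layers were far apart for their spread, at 0.79 ± 0.089 (limma adjusted p = 0.000115). Hspe1 stood at 12.29, 12.22 and 12.27 in endoderm and at 11.46, 11.74 and 11.89 in mesenchyme. Mesenchyme was more scattered and stayed below endoderm, at 0.56 ± 0.12 (limma adjusted p = 0.00418).

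The pair from 35 fetuses in the first table had differences of 0.75 for Hspd1 and 0.99 for Hspe1, as values with no test. The third mitochondrial gene, Hspa9, stood at 10.60, 11.09 and 11.08 in endoderm and at 10.64, 10.61 and 10.60 in mesenchyme. Endoderm 2 overlapped mesenchyme, and the difference of 0.31 ± 0.14 was not called (limma adjusted p = 0.0959). Without endoderm 2 it was 0.47 and was called (limma adjusted p = 0.00149). Of its other probe sets 1 gave 0.63 and was called (limma adjusted p = 0.00264), and another gave -0.19 and was not (limma adjusted p = 0.703).

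Dnajb1 was called in the direction opposite to Hspd1 and Hspe1. It stood at 9.21, 9.16 and 9.26 in endoderm and at 9.47, 9.80 and 9.99 in mesenchyme. The layers did not overlap, and endoderm was at -0.54 ± 0.13 (limma adjusted p = 0.00904). The other probe set of Dnajb1 gave -1.0 and was called too (limma adjusted p = 0.048). In the pair from 35 fetuses the layers were level, with a difference of -0.04.

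Hspa1b stood at 9.81, 11.83 and 11.31 in endoderm and at 10.67, 11.83 and 12.00 in mesenchyme. The arrays numbered 2 were lowest in both layers, by 1.76 and 1.25 below the mean of the other 2 pools. As fitted, the difference of -0.52 ± 0.53 was not called (limma adjusted p = 0.447). With the replicate number as a block it was called lower in endoderm (-0.52, limma adjusted p = 0.0455), which made 2 of 9 called lower. Without endoderm 2, which leaves mesenchyme 2 without its partner, its sign turned, to 0.07. Without both arrays numbered 2 it was -0.345 (limma adjusted p = 0.162), and in the pair from 35 fetuses endoderm was 0.97 above mesenchyme.

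Of the other 3 cytosolic genes 0 were called by limma, and 0 had an unadjusted p under 0.05. Hsp90aa1 stood at 12.30, 13.01 and 12.88 in endoderm and at 12.40, 12.53 and 12.55 in mesenchyme, overlapping through endoderm 2 (0.24 ± 0.18, limma adjusted p = 0.295). Without endoderm 2 it was called, at 0.45 (limma adjusted p = 0.00434), and so was another of its probe sets with all arrays (0.46, limma adjusted p = 0.003). Hspa8 stood at 13.57, 13.39 and 13.33 in endoderm and at 13.26, 13.25 and 13.27 in mesenchyme, a step with no overlap that was not called (0.17 ± 0.093, limma adjusted p = 0.16).

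Hsph1 stood at 10.51, 10.26 and 10.47 in endoderm and at 10.25, 10.27 and 10.55 in mesenchyme. These ranges overlapped almost wholly (0.06 ± 0.12, limma adjusted p = 0.711), and the sign turned to -0.05 without both arrays numbered 2. Hspa5, the ER gene, stood at 12.36, 12.73 and 12.60 in endoderm and at 12.28, 12.79 and 12.59 in mesenchyme. Its difference was 0.01 ± 0.15 (limma adjusted p = 0.961), and the sign turned without mesenchyme 2, endoderm 3 or endoderm 4 (-0.13, -0.07 and -0.01). Without endoderm 2, or without both arrays numbered 2, 4 of 9 genes were called higher in endoderm, with Hsp90aa1 and Hspa9 added.

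**Figure D5:**
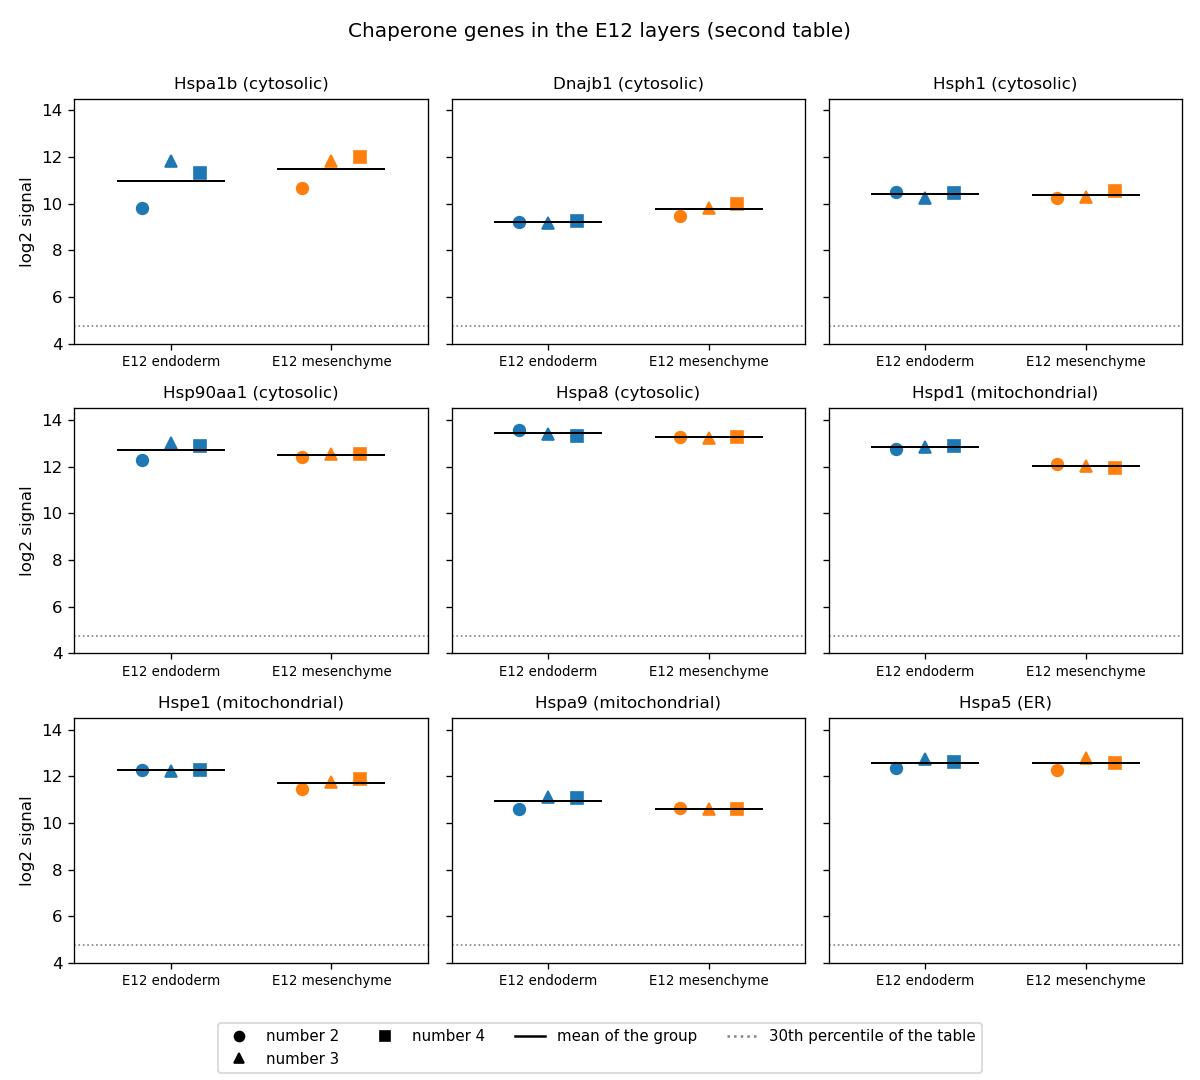
Log2 signal (y axis) of 9 chaperone genes on the second table's 6 E12 arrays, 1 panel a gene, with points for pools 2, 3 and 4 of each layer, bars for the mean of 3 and a dotted line at the 30th percentile of the table. Hspd1 and Hspe1 stand higher in endoderm and Dnajb1 in mesenchyme with no overlap, and both pools numbered 2 are the lowest of their layer for Hspa1b.

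Other folding genes showed changes in both directions between the layers. Over all 9442 genes tested, 27.7% were called higher in endoderm and 25.4% lower. The counts of the folding lists lay near or below those shares. Of 29 cytosolic heat shock genes and cochaperones 9 were called higher in endoderm and 7 lower (median 0.05). The largest were Bag3, a cochaperone of Hsp70, at -2.15 and Hspb1, a small heat shock protein, at -2.04, both lower in endoderm as Dnajb1 was. The 7 called lower became 4 without mesenchyme 4.

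Mitochondrial genes had 4 of 14 called higher and 2 lower (median 0.21), with Dnaja3, the J-domain partner of Hspa9, at 1.16 and Grpel1 at 0.66. The 2 called lower became 1 without mesenchyme 2, 3 or 4, or without endoderm 3 or 4. Of 25 ER genes 3 were called higher and 1 lower (median 0.00), with Atf6, a sensor of the unfolded protein response, at 0.92 and Erp29, an ER folding factor, at 0.67. The 1 called lower became 0 without mesenchyme 3, mesenchyme 4 or endoderm 4, and 2 without mesenchyme 2 or endoderm 2. Of 13 TRiC and prefoldin genes 1 was called higher and 2 lower (median 0.10), with the prefoldin genes Pfdn5 at -0.79 and Vbp1 at -0.61. Those called higher were 2 without endoderm 2.

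Immediate-early genes were called higher in endoderm for 3 of 12 and lower for 4, with Klf6 at 2.17 and Fosb at -2.48 (its endoderm mean of 4.77 was at the edge of dim). Their mean was 9.67 to 9.82 in endoderm and 9.69 to 9.95 in mesenchyme. Of 9 proliferation markers 1 was called higher and 0 lower, with means of 10.84 to 10.94 and 10.81 to 10.84. Erythroid markers, at 5.54 to 5.69 in endoderm and 9.0 to 9.21 in mesenchyme, had 5 of 5 called lower in endoderm. So did 6 of 6 endothelial markers (4.54 to 4.61 and 7.58 to 7.80, with 4 of the 6 below the 30th percentile in endoderm). Their part in the layer differences was not tested.

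Over the 8 arrays of the first table, as a description across groups, the mitochondrial genes had nearly the same profile. Pearson's r was 0.99 for Hspd1 with Hspe1, 0.98 for Hspd1 with Hspa9 and 0.97 for Hspe1 with Hspa9. Hspa8 and Hsph1 were at 0.96. Dnajb1 had r between -0.50 and 0.67 with the other 8 genes, the highest with Hspa1b. These values rest largely on the 4 groups that the arrays share. Over the 6 E12 arrays of the second table r was lower. It was 0.84 for Hspd1 with Hspe1, 0.75 for Hspd1 with Hspa9 and 0.57 for Hspe1 with Hspa9. Hspa8 and Hsph1 were at 0.37 there.

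The tested genes outside the family most like the mean mitochondrial profile were Fam110a (r = 0.99), C1qbp, a protein of the mitochondrial matrix (0.99), Pold2, a subunit of DNA polymerase delta (0.99), Lbr, the lamin B receptor (0.99), and Emg1, a factor of ribosome assembly (0.99). For the mean cytosolic profile they were Sem1, Psmc3 and Psmd14 of the proteasome, at 0.95, 0.94 and 0.93, the transcription factor subunit Taf13 at 0.93 and the Hsp90 cochaperone Chordc1 at 0.93. For Hspa5 they were Nudcd1, Aen, Rrp12, Pradc1 and Ccdc86, each at 0.97. Fam110a ranged over 0.81 log2 units across the arrays and C1qbp over 4.36.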

How the data were processed

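The authors deposited log2 signals made with RMA per the submitters' processing notes, as 2 tables of 22690 probe sets. The RMA version and the build were not given in the sources used here. Arrays have no read depth, and their number limits the precision.

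Probe sets with 1 symbol in the platform's gene table were used, and of several for a gene the brightest on average was kept. Genes past the 30th percentile of their table on 3 or more arrays were tested with limma 3.58.1 (lmFit, eBayes, Benjamini-Hochberg, called at an adjusted p under 0.05) in R 4.3.3, tested on simulated data. Adult groups were fitted on 6 arrays, the E12 layers on the 6 of the second table, and adult groups against E12 endoderm on the 8 of the first table. In that last fit, with 1 array of each E12 layer, genes bright in the E12 arrays alone could not pass the filter. They are missing from its counts over all genes. The p-values measure only the spread between these samples, which may be technical.

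The members and lists were chosen with earlier results of these data known. All members were named, and of each list the 2 largest called changes, or the largest difference where 0 were called. E12 replicate numbers were taken to pair the pools, since deviations of same-numbered pools correlated at 0.21, 0.23 and 0.11 (above 0.1 in each). Among pools of unlike number, endoderm 3 and mesenchyme 4 also gave 0.13, and endoderm 3 and mesenchyme 2 gave -0.30. The main fit of the E12 layers did not use this pairing, which entered only as the replicate block among the alternatives. No array copied another: at most 377 of 12394 gene values were equal in a pair.

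Alternatives were another summary of probe sets, the probe sets without cross-hybridizing types, no dim gene filter, quantile normalization, a trended and robust prior, the replicate block, leaving out arrays, all E12 arrays and a fit without the E12 mesenchyme array. Chosen after seeing the data were those leaving out both arrays numbered 41 or 2, and each probe set as its own row.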

Additional observations from a re-analysis of the deposited data

How the results depend on the processing

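Over the alternatives, 112 of 137 values of the villus against crypt comparison for members kept direction and side of the threshold, 129 of 149 between the E12 layers, 113 of 139 for crypt against E12 endoderm and 121 of 139 for villus against E12 endoderm. The cause of the changes below was not tested. In villus against crypt, members called lower numbered 7 with quantile normalization and 0 with the replicate block, and members called higher numbered 1 (Dnajb1) with the median of probe sets, with the block and without both arrays numbered 41, and 0 to 1 with single arrays left out. All genes called were 1260 with the block, 1851 to 3069 with single arrays left out and 2807 without both arrays numbered 41. The adult numbers 12 and 41 are shared by a crypt and a villus only, and deviations of these correlated at 0.16 and 0.07, so the block rests on a number alone. With it the genes called lower went from 8 to 1 for TRiC and prefoldin, 11 to 2 for the ER, 6 to 0 for mitochondria and 6 to 0 for the cytosolic cochaperones, and limma adjusted p was 0.0516 for Hspd1, 0.065 for Hspe1, 0.0854 for Hspa5 and 0.105 for Hspa9. Between the E12 layers, members called lower numbered 2 with the replicate block (Hspa1b added, adjusted p 0.0455 in limma), and it changed no other member call. Members called higher numbered 2 to 4 with single arrays left out and 4 without both arrays numbered 2. In crypt against E12 endoderm, members called lower numbered 1 with the median of probe sets, 1 without cross-hybridizing probe sets (Hspe1 in each), 0 to 4 with single arrays left out and 8 without both arrays numbered 41. All genes called there were 1340 to 2983 with single arrays left out and 3419 without both arrays numbered 41. Signs turned, without a call, between the E12 layers for Hspa5 (-0.0383 with the median, -0.0250 without both arrays numbered 2, -0.13 to 0.13 with single arrays left out, -0.0867 on its other probe set), Hsph1 (-0.175 with the median, -0.0450 without both arrays numbered 2, -0.41 on its other probe set), Hspa1b (-0.94 to 0.07 with single arrays left out), Hspa8 (-0.01 on another probe set) and Hspa9 (-0.19 on another, and 0.63 with a call on one more). In crypt against E12 endoderm they turned for Hspa8 (0.21 with the median, 0.19 without cross-hybridizing probe sets, and 0.19, 0.73 and 0.30 on other probe sets), Hspa5 (0.0147 with quantile normalization) and Hspa9 (0.0786 on another probe set). In villus against E12 endoderm Hspa8 turned on another probe set (0.0233).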
